A study of Mus musculus with 8 samples.

Results

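The cathepsins are the proteases of the lysosome, and 10 of them (Ctsa, Ctsb, Ctsc, Ctsd, Ctse, Ctsh, Ctsk, Ctsl, Ctss and Ctsz) were followed in GFP-positive cells sorted from ischemic and from normal mouse kidneys. The genes were taken as a family by symbol, with earlier results of these data known, and all 10 were among the 18193 genes with a probe set of 1 symbol on Affymetrix mouse arrays. The ischemic group held 5 kidneys of FSP1-eGFP mice on a C57BL/6 background, taken on day 3 after a clamp of 45 minutes on the vessels (artery and vein) of the left kidney. The normal group held 3 kidneys of the same strain, which the labels also call sham. All mice were 6 months old and labelled male, and buprenorphine is given in the labels for pain after the surgery. The GFP is driven by the promoter of FSP1 (S100a4), which is used to mark fibroblasts and is also known to be active in myeloid cells, so the sort can hold several cell types. The labels do not say whether each normal kidney came from a separate animal, so p-values measure only the spread between these samples.

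Cathepsins are made as inactive precursors, tagged with mannose 6-phosphate, delivered to the acidic lysosome and activated there by removal of a propeptide. Most are cysteine proteases related to papain (Ctsb, Ctsc, Ctsh, Ctsk, Ctsl, Ctss and Ctsz), while Ctsd and Ctse are aspartic proteases and Ctsa is a serine carboxypeptidase. In the kidney they break down proteins taken up by the proximal tubule, and in macrophages they digest engulfed cells and trim antigens for presentation. Cystatins outside and inside the cell hold the cysteine cathepsins in check.

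The stretches around the start of 4 of these genes are shown because they hold motifs that 2 well-known regulators of lysosomal and myeloid genes read. TFEB and its relatives, which switch on lysosomal genes together, bind a palindrome with the core TCACGTGA. PU.1, the transcription factor of myeloid cells, binds sites with the core GAGGAA. Windows of 300 bases (250 before and 50 after a start site, RefSeq, GRCm38.p6) were at hand for 7 of the 10 genes, in 8 windows since Ctsa has 2. Both strands were searched, and the 2 motifs share no position. The palindrome was found in 1 of the Ctsa windows, where it occurs 2 times, and in the Ctsd window, against 0.974% of all 32851 windows. The GAGGAA core occurs 2 times each in the windows of Ctsc, Ctsk and Ctss, so that 3 of the 8 windows hold it, a share near the 28.3% of all windows that do. Neither motif was found in the windows of Ctsl and Ctsz or in the other window of Ctsa. No window of a cathepsin held both. Such matches describe letters and are not measured binding. In the sequences below capitals mark the palindrome in Ctsa and Ctsd and the GAGGAA core (TTCCTC on the other strand) in Ctsc and Ctss.
Ctsa, chr2:164833523-164833822, plus strand: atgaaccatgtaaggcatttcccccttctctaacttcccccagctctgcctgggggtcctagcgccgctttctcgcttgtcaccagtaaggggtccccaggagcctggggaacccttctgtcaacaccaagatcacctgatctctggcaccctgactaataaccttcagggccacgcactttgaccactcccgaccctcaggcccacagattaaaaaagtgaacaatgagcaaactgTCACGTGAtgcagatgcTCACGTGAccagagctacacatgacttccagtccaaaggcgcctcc
Ctsd, chr7:142387778-142388077, minus strand: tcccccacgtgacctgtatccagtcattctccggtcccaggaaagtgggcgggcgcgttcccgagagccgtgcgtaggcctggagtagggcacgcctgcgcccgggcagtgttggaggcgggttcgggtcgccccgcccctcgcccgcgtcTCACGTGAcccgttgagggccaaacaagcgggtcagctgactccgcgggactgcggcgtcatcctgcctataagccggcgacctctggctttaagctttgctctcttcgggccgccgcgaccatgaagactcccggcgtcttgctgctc
Ctsc, chr7:88277835-88278134, plus strand: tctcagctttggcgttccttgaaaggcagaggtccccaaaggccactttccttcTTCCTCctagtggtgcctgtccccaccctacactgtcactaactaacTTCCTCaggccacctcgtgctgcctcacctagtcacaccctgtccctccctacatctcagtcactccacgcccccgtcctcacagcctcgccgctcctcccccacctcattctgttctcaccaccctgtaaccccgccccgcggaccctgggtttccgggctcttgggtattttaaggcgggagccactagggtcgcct
Ctss, chr3:95526536-95526835, plus strand: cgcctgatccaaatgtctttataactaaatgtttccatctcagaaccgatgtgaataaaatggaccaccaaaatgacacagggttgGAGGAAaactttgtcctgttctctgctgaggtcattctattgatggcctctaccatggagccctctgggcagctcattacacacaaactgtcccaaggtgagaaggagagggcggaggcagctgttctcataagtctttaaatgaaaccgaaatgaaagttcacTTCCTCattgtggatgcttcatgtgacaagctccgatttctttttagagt

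Values below are log2(intensity + 16) after quantile normalization of the 8 arrays, a scale on which an intensity of 1 is 4.09 and which understates the change of dim genes. Some arrays stood apart. Ischemic 1 was least like the rest, with a median correlation across genes of 0.752, and for the other 7 arrays that median was 0.850 to 0.913. Xist, the RNA of the inactive X chromosome of females, read 11.19 in ischemic 1, 9.39 in ischemic 2 and 11.01 in normal 1, against 4.49 to 4.96 in the other 5 arrays, although all mice are labelled male. Eif2s3y, a gene of the Y chromosome, read 5.84 in ischemic 1 and in normal 1. In ischemic 2 it read 7.78, within the 7.68 to 8.87 of the 5 arrays with low Xist. For the cathepsins and the genes named from the other lysosomal lists, differences that moved by more than 1.5 times are given with that value. This covers fits without ischemic 1, ischemic 2 or normal 1, and fits in the 5 arrays with low Xist. S100a4, the cell type lists and the single probe sets were not refit in this way. Markers of other cell types differed between the groups. Over 16 of 18 listed macrophage and monocyte genes the mean level was 9.17 to 10.25 in ischemic and 8.61 to 8.94 in normal arrays, and the summed intensity was 16416 to 30800 in ischemic and 12954 to 17504 in normal arrays. Over 12 proximal tubule genes the mean level was 6.13 to 7.93 in ischemic and 9.10 to 10.82 in normal arrays, and the summed intensity was 2476 to 4992 in ischemic and 12274 to 27215 in normal arrays. All 16 macrophage genes were higher (median 0.79) and all 12 tubule genes lower (median −3.08) in ischemic arrays, 0 of them past limma's adjusted threshold, with 7 and 11 at an unadjusted p of 0.05. None of these genes was below an intensity of 16 on all arrays. All 7 distal nephron and collecting duct genes were lower (median −2.26, 5 at an unadjusted p of 0.05 and 5 apart), with a mean level of 5.74 to 6.74 in ischemic and 7.79 to 8.29 in normal arrays. Of 6 endothelial genes 5 were lower (median −1.09), and their mean level was 6.99 to 9.97 in ischemic and 7.99 to 9.54 in normal arrays. The B cell list and the T and NK cell list had their highest means in ischemic 1, at 9.04 and 7.62. The 10 fibroblast markers, of which Lum was below 16 on every array, had a mean level of 5.57 to 7.02 in ischemic and 5.43 to 6.18 in normal arrays. Of them 8 were higher and 2 lower (median 0.51), with 0 at an unadjusted limma p of 0.05. Of 5 neutrophil genes 2 were higher (median −0.072), and of 5 dendritic cell genes 2 were higher (median −0.0093). In such bulk samples fewer cells of a type and less RNA per cell cannot be told apart, and the part of these shifts in the results below was not tested.

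As a family the cathepsins leaned higher in the cells from ischemic kidneys, by small amounts that limma did not call. The difference between the groups was above 0 in 9 of the 10 genes, against 54.8% of all genes, and the count was 7 when quantile normalization was replaced by centring on each array's median or on its ribosomal protein genes. The differences spanned −0.36 (Ctse) to 0.87 (Ctsc), with a median of 0.31 against 0.041 over all genes. That median was 0.18 without ischemic 3, 0.21 without normal 1 and 0.056 under ribosomal protein centring, a scaling that moved the median of all genes to −0.11. It was 0.18 with arrays centred on their median, 0.48 with array weights and 0.60 with the most variable probe set of each gene. The count of genes above 0 was also 7 without ischemic 3 and 7 without normal 1. None of the 10 genes passed limma at an adjusted p of 0.05, where 0% of all genes tested did, and their adjusted p ran from 0.352 to 0.999. At an unadjusted limma p of 0.05 Ctsc alone passed, where 7.12% of all genes did, 2.11% higher and 5.01% lower in ischemic arrays. The count of cathepsins was 0 under ribosomal protein centring, with a pseudocount of 1 and in the arrays with low Xist, and 2 without ischemic 1, with the mean of all probe sets and with the Xist class as a block. Of all 18193 genes 1652, 1250 and 973 passed in the former settings and 1552, 1365 and 1498 in the latter. The groups were apart, so that their ranges did not overlap, in Ctsc alone, where this held in 5.3% of all genes with 1.89% higher and 3.42% lower in ischemic arrays. With 10 genes the main counts at an unadjusted limma p of 0.05 and of genes apart are near what those shares give.

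**Figure D1:**
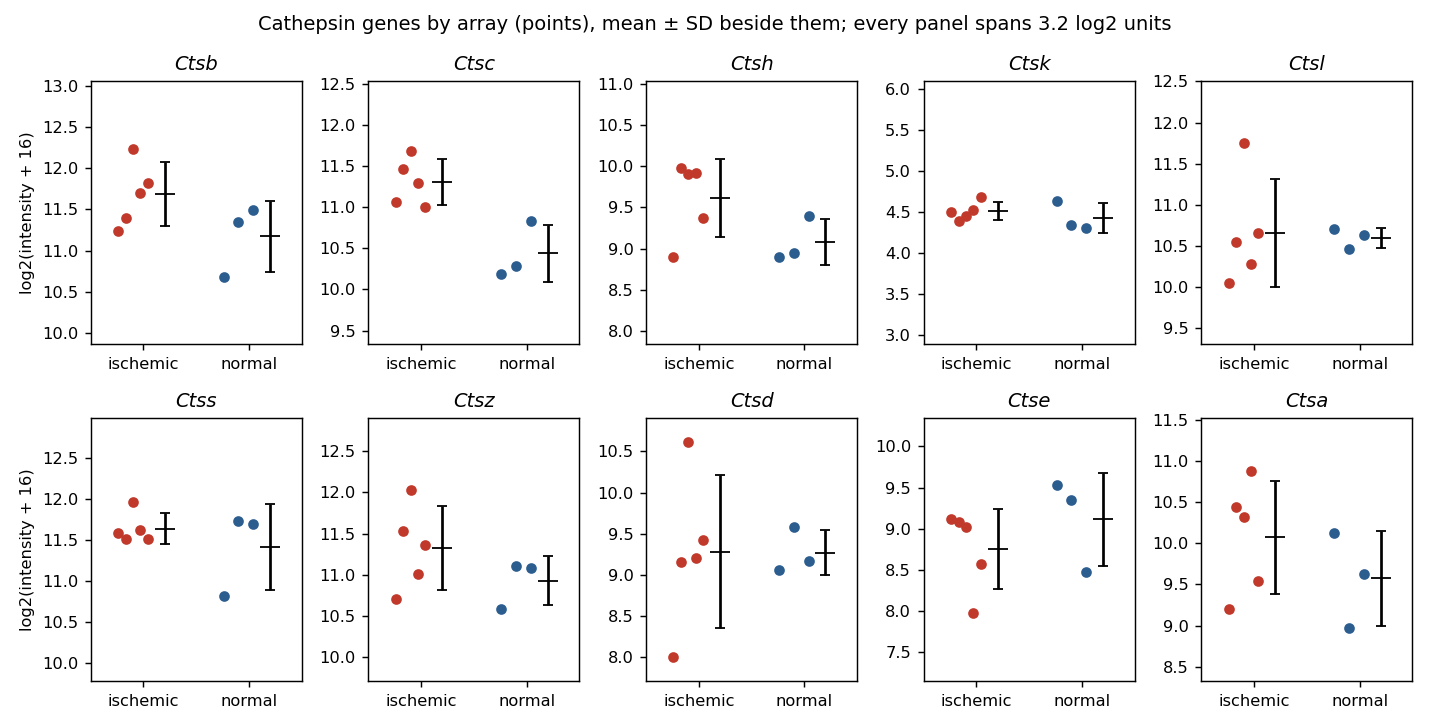
Level of each cathepsin gene on the log2(intensity + 16) scale in 5 ischemic arrays (red, left) and 3 normal arrays (blue, right), with the mean ± SD beside the points. The groups are apart only in Ctsc, from 11.01 to 11.68 in ischemic and from 10.19 to 10.84 in normal arrays, and Ctsk lies between 4.31 and 4.68 in all 8.

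Ctsc encodes the dipeptidyl peptidase that activates the serine proteases stored in the granules of neutrophils, mast cells and cytotoxic lymphocytes. It read 11.06, 11.47, 11.68, 11.29 and 11.01 in ischemic 1 to 5, against 10.19, 10.29 and 10.84 in normal 1 to 3. All 5 ischemic arrays were above all 3 normal arrays, and the gap between the lowest ischemic and the highest normal array was narrow. The difference was 0.87 ± 0.25 (SE, n = 5 and 3), which is 1.82-fold, with a 95% interval of 0.29 to 1.45 and a limma adjusted p of 0.352. A two-sided exact permutation test with its 56 possible splits gave p = 0.0179, the smallest it can give. Such tests were made for the 10 cathepsins, for the genes named by lowest p from the other lists and for S100a4. Of these, Rragd, described below, reached the same exact permutation p. Leaving out 1 array moved the difference between 0.74 (normal 1) and 1.06 (normal 3), and it was 0.76 in the 5 arrays with low Xist and 0.56 under ribosomal protein centring. Its other probe sets differed by 0.74 ± 0.50 and 0.51 ± 0.30 (SE), and in both the groups overlapped. The granule protease Ctsg, whose precursor Ctsc trims, was below an intensity of 16 on every array.

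Ctsb, an abundant endopeptidase that also acts as a peptidyl-dipeptidase, read 11.24, 11.40, 12.24, 11.71 and 11.83 in ischemic 1 to 5, against 10.68, 11.35 and 11.49 in normal 1 to 3. Ischemic 1 and 2 fell among the normal values, and normal 1 was the lowest of all 8. The difference was 0.51 ± 0.30 (SE, n = 5 and 3; limma adjusted p = 0.858, exact permutation p = 0.161). It was 0.26 without normal 1, while within the 5 arrays of low Xist the groups were apart and the difference was 0.50, in a comparison of 3 against 2 arrays where 20.8% of all genes are apart. The gene has 5 probe sets, all higher in ischemic arrays, from 0.44 ± 0.39 to 1.42 ± 0.55 (SE).

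Ctsh, chiefly an aminopeptidase, read 8.90, 9.98, 9.91, 9.91 and 9.37 in ischemic 1 to 5, against 8.89, 8.94 and 9.40 in normal 1 to 3. Ischemic 2, 3 and 4 were above every normal array, and ischemic 1 and 5 were not. The difference of 0.54 ± 0.31 (SE, n = 5 and 3) did not pass (limma adjusted p = 0.846, exact permutation p = 0.196), and it was 0.72 without ischemic 1 and 0.20 under ribosomal protein centring. A second probe set of Ctsh differed by 0.44 ± 0.36 (SE).

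Ctsz, a carboxypeptidase also called cathepsin X, read 10.70, 11.53, 12.03, 11.01 and 11.36 in ischemic 1 to 5, against 10.59, 11.11 and 11.08 in normal 1 to 3. The groups overlapped through ischemic 1 and 4. Its difference was 0.40 ± 0.32 (SE, n = 5 and 3; limma adjusted p = 0.929, exact permutation p = 0.25), with 0.22 without ischemic 3, 0.23 without normal 1 and 0.11 under ribosomal protein centring. The 2 other probe sets of Ctsz differed by 0.61 and 0.58. The set used ends in _s_at and one of the others in _x_at, suffixes that Affymetrix gives to sets whose probes may match several transcripts.

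Ctss, the protease that removes the invariant chain from MHC class II in antigen-presenting cells, read 11.59, 11.51, 11.96, 11.62 and 11.50 in ischemic 1 to 5, against 10.81, 11.73 and 11.70 in normal 1 to 3. Normal 1 was the lowest array, and the other normal arrays lay above 4 of the 5 ischemic ones. The difference of 0.22 ± 0.27 (SE, n = 5 and 3; limma adjusted p = 0.954, exact permutation p = 0.482) turned to −0.079 without normal 1 and to −0.021 in the arrays with low Xist. Its 95% interval, −0.39 to 0.84, allows a change in either direction. The class II genes around it in the same pathway are given below.

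Ctsl, an endopeptidase of most tissues, read 10.05, 10.54, 11.75, 10.28 and 10.65 in ischemic 1 to 5, against 10.70, 10.46 and 10.63 in normal 1 to 3. The normal arrays were close together (SD 0.12, n = 3), whereas the ischemic ones were spread (SD 0.66, n = 5), and ischemic 3 was the highest. The difference was 0.059 ± 0.37 (SE, n = 5 and 3; limma adjusted p = 0.988, exact permutation p = 0.911) and −0.22 without ischemic 3. It was −0.16 with arrays centred on their median and −0.29 under ribosomal protein centring, and it was 0.35 in the arrays with low Xist. Without ischemic 1 it was 0.21, and without normal 1 it was 0.11. A dimmer probe set differed by 0.59 ± 0.40 (SE).

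Ctsk, the collagen-degrading cathepsin of osteoclasts, which fibroblasts can also make, was near the bottom of the scale on every array. Its intensities as deposited were 9.83, 4.5, 5.52, 6.29 and 9.29 in ischemic 1 to 5, against 8.47, 3.82 and 3.86 in normal 1 to 3. The difference was 0.078 ± 0.19 (SE, n = 5 and 3; limma adjusted p = 0.970, exact permutation p = 0.482), with 0.18 without normal 1 and 0.23 in the arrays with low Xist, and a change of a gene this dim could not be measured on these arrays. Ctsk and Ctss are neighbours on mouse chromosome 3. Of 5 osteoclast markers, Calcr was below 16 on every array, and the list mean was 5.13 to 5.78 in ischemic and 4.58 to 5.84 in normal arrays.

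Among the aspartic proteases, Ctsd, the main aspartic protease of lysosomes, read 8.01, 9.16, 10.61, 9.20 and 9.42 in ischemic 1 to 5, against 9.06, 9.58 and 9.17 in normal 1 to 3. The lowest and the highest of all 8 arrays were both ischemic, and the ischemic SD was 0.93 (n = 5) against 0.27 (n = 3) in normal arrays. The difference was 0.0099 ± 0.51 (SE, n = 5 and 3; limma adjusted p = 0.999, exact permutation p = 0.964), with an interval of −1.14 to 1.16. Without ischemic 1 it was 0.33, without ischemic 3 it was −0.32, and in the arrays with low Xist it was 0.37. Without normal 1 it was −0.096, and without ischemic 2 it was 0.040. Its only probe set thus gave no direction in these arrays.

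Ctse, an aspartic protease of endosomes in immune cells and stomach, read 9.12, 9.08, 9.03, 7.97 and 8.57 in ischemic 1 to 5, against 9.53, 9.34 and 8.47 in normal 1 to 3. Normal 1 and 2 were above every ischemic array, and normal 3 was below 4 of them. The difference of −0.36 ± 0.36 (SE, n = 5 and 3; limma adjusted p = 0.951, exact permutation p = 0.375) was −0.68 without normal 3, −0.16 without normal 1 and −0.17 without ischemic 4. It was −0.61 with arrays centred on their median, −0.74 under ribosomal protein centring and −0.17 with array weights. A second probe set pointed the other way, at 0.78 ± 0.56 (SE), with 7.76 in ischemic and 6.98 in normal arrays on average. The brighter probe set, like that of Ctsz, is an _s_at set, and the direction of Ctse was not settled.

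Ctsa, the serine carboxypeptidase that also protects lysosomal beta-galactosidase and neuraminidase, read 9.20, 10.44, 10.32, 10.88 and 9.54 in ischemic 1 to 5, against 10.12, 8.97 and 9.63 in normal 1 to 3. Ischemic 2, 3 and 4 were above every normal array, and ischemic 1 and 5 were among the normal values. The difference was 0.50 ± 0.44 (SE, n = 5 and 3; limma adjusted p = 0.937, exact permutation p = 0.321), with 0.20 without normal 2, 0.30 without ischemic 4 and 0.78 without normal 1. It was 0.95 in the arrays with low Xist, 0.22 with arrays centred on their median and 0.10 under ribosomal protein centring. A dimmer probe set differed by 1.07 ± 0.74 (SE).

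**Figure D2:**
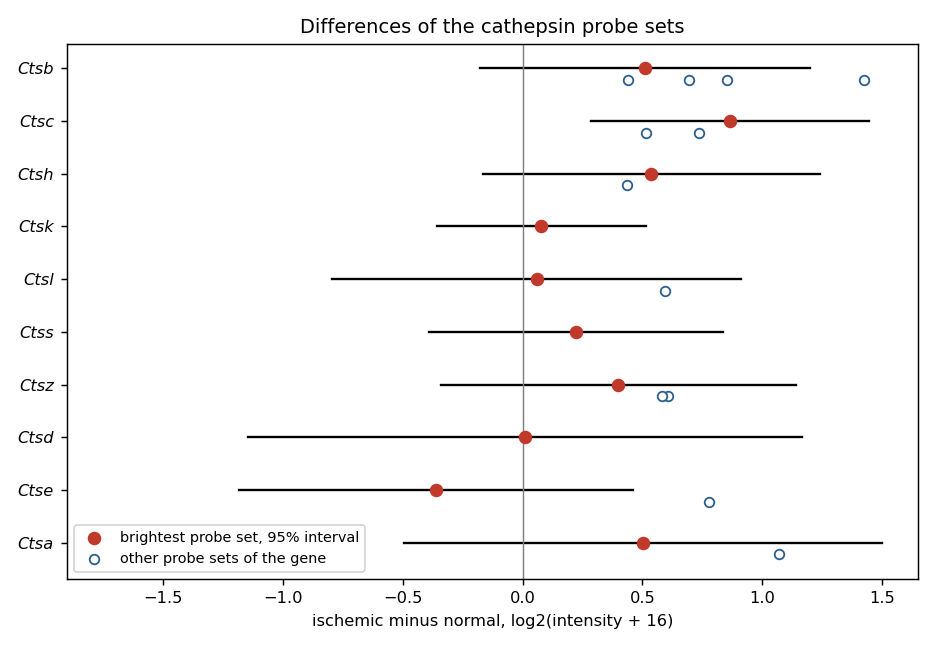
Ischemic minus normal difference of each cathepsin gene (red, brightest probe set, with its 95% interval from limma) and of its other probe sets (open blue circles), on the log2(intensity + 16) scale. The interval lies above 0 only in Ctsc (0.29 to 1.45), and of 22 probe sets only the brightest of Ctse is below 0.

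Over all 22 probe sets of the 10 genes, 21 were higher in ischemic arrays, against 56.2% of all probe sets. Probe sets of 1 gene are not independent, and 3 of the genes have 1 probe set only. When a gene was read as the mean of its probe sets, all 10 differences were above 0. The groups were then apart in 0 of the 10, where 5.36% of all genes were.

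The arrays differed among themselves in ways the groups did not explain. Ischemic 3 held the highest value of all 8 arrays in 6 genes (Ctsb, Ctsc, Ctsd, Ctsl, Ctss and Ctsz), and its median deviation from each gene's own mean was 0.60. Ischemic 1 was the lowest ischemic array in 6 genes, with a median deviation of −0.36, and the other 3 ischemic arrays lay between 0.024 and 0.073. Normal 1 was the lowest of all 8 arrays in 5 genes (Ctsb, Ctsc, Ctsh, Ctss and Ctsz), with a median deviation of −0.37, against −0.14 in normal 2 and −0.098 in normal 3. The macrophage list had its highest mean in the same array, ischemic 3 (10.25), its lowest ischemic mean in ischemic 1 (9.17) and its lowest of all in normal 1 (8.61). This was not particular to macrophage genes. The fibroblast (7.02), neutrophil (6.91) and osteoclast (5.78) lists also had their highest ischemic mean in ischemic 3, and S100a4 was highest there (12.23). The remaining cell type lists had theirs in other ischemic arrays. Proximal tubule genes had their highest mean in normal 1 (10.82). Single genes had other orders. Ctsa was highest in ischemic 4, Ctsh in ischemic 2, Ctsk in ischemic 5 and Ctse in normal 1, and Ctsd and Ctsl were lowest in ischemic 1.

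**Figure D3:**
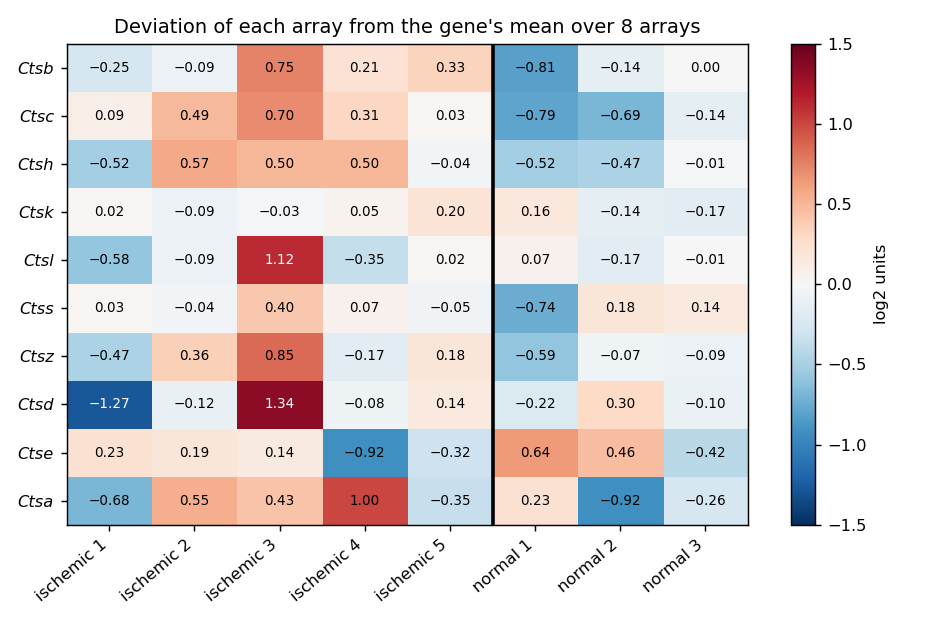
Deviation of every array from the mean of the gene over the 8 arrays, in log2 units, with ischemic arrays left of the black line and normal arrays right of it. Ischemic 3 is above the mean in 9 of 10 genes, up to 1.34 in Ctsd, and ischemic 1 is at −1.27 in Ctsd.

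The members did not all follow each other across arrays. Over the 8 arrays Pearson's r, given here as a description, was highest between Ctsd and Ctsl (0.880), between Ctsc and Ctsh (0.840) and between Ctsb and Ctsz (0.833). Without ischemic 3 these were 0.704, 0.801 and 0.681. The used probe set of Ctse had an r of −0.55 with Ctsh and −0.52 with Ctsb, which were −0.66 and −0.79 without ischemic 3. Such neighbours were sought for the 9 cathepsins other than Ctsk, which lies below the median level. Among the 9097 genes at or above that level, the pattern most like that of Ctsc was Fcgr1, the high-affinity IgG receptor of macrophages (r = 0.988 over 8 arrays and at least 0.984 with any array left out). For Ctsh it was Ikzf1, a transcription factor of lymphoid and myeloid cells (0.979), for Ctsa Nfam1, an immune receptor adaptor (0.964), and for Ctsb Cct3, a chaperonin subunit (0.970). For Ctsz it was Mak16 (0.985), for Ctsl Rab20 (0.951) and for Ctsd Rps27l (0.963). For Ctse it was Cdk4, a cell cycle kinase (0.926, and 0.838 without ischemic 4). For Ctss it was Sec11a, a subunit of the signal peptidase (0.983, and 0.915 without normal 1). Second in likeness were Ung for Ctsc (0.978), Ckb for Ctsh (0.971), Mcm2 for Ctsa (0.960), Colec12 for Ctsb (0.969) and Slfn2 for Ctsz (0.970). For Ctsl it was Slbp (0.941, and 0.687 without ischemic 3), for Ctsd Cisd2 (0.961), for Ctse Ppm1b (0.920) and for Ctss Cxcl2 (0.969). With 8 arrays and 9097 genes searched a high r is easily met.

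The rest of the lysosomal machinery did not move as a block. Of 25 other lysosomal hydrolases measured, 12 were higher and 13 lower, with a median of −0.040 and 0 past limma's adjusted threshold (1 higher and 1 lower at an unadjusted p of 0.05). Dnase2a, which digests DNA in lysosomes, read 6.85 to 9.14 with a median of 8.30 in ischemic arrays, against 9.62, 9.71 and 9.83 in normal arrays, with the groups apart (−1.57 ± 0.45, SE; limma adjusted p = 0.342). Pla2g15, a lysosomal phospholipase, was apart in the other direction, at 8.16 to 9.70 in ischemic and 7.48 to 8.02 in normal arrays (0.97 ± 0.37, SE; limma adjusted p = 0.593). Of 9 lysosomal membrane genes 6 were higher, with a median of 0.040. Cd68, the membrane protein of macrophage lysosomes, differed by 0.95 ± 0.46 (SE) and by 0.52 without normal 1, and Npc1, the cholesterol exporter, by 0.50 ± 0.28 (SE) and by 0.22 in the arrays with low Xist.

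Genes that deliver cathepsins to the lysosome were mixed. Of 12 such genes 7 were higher and 5 lower, with a median of 0.13 and 0 past limma's adjusted threshold (1 at an unadjusted p of 0.05). Nagpa, which uncovers the mannose 6-phosphate tag, read 6.52 to 7.54 in ischemic and 4.92 to 6.58 in normal arrays (1.26 ± 0.39, SE; limma adjusted p = 0.392), and 0.65 as the mean of its probe sets. Igf2r, the large mannose 6-phosphate receptor, was at −0.74 ± 0.36 (SE), at −0.45 in the arrays with low Xist and at −0.41 with array weights. Of 8 genes of lysosomal transcription and nutrient sensing 5 were higher, with a median of 0.11. Rragd, a GTPase that places mTORC1 on the lysosome and is a known target of TFEB, read 4.91 to 6.72 in ischemic and 7.04 to 8.38 in normal arrays (−2.21 ± 0.49, SE; limma adjusted p = 0.183). The groups were apart in Rragd, and its value was −1.12 as the mean of its probe sets. Under ribosomal protein centring it was −2.43 and passed, with a limma adjusted p of 0.0449. Mitf, a relative of TFEB, was at 0.44 ± 0.35 (SE), at 0.080 without normal 1 and at 0.15 in the arrays with low Xist.

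Inhibitors of cathepsins were higher in 6 of the 7 measured, with a median of 0.32, and 0 passed limma's threshold adjusted or unadjusted. Cst7, a cystatin of leukocytes whose protein inhibits Ctsc, was at 0.55 ± 0.46 (SE), and at 0.21 without ischemic 1 and 0.32 without normal 3. Csta1, a stefin, was at 0.47 ± 0.38 (SE), with 0.18 without ischemic 1 and 0.057 in the arrays with low Xist. The other 12 mouse cathepsins, many of them placental or of granules, had a median of 0.12, with 4 below an intensity of 16 on all arrays and 0 past limma's threshold adjusted or unadjusted. Ctsf, a cysteine cathepsin expressed widely, was at −0.99 ± 0.49 (SE), at −0.55 as the mean of its probe sets and at −0.58 with array weights. Ctsm, one of the 4 genes below 16, was at 0.27 ± 0.23 (SE) and at 1.02 with a pseudocount of 1, so its size was not measured. Of 9 class II presentation genes 7 were higher, with a median of 0.23 and 0 past the adjusted threshold (1 at an unadjusted p of 0.05). H2-DMb2, a chain of the peptide exchange factor, read 8.38 to 9.82 in ischemic arrays and at most 8.59 in normal arrays (2.46-fold, limma adjusted p = 0.497), with a log2 difference of 0.66 in the arrays with low Xist, and Ciita, the class II transactivator, was at 0.55 ± 0.26 (SE).

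S100a4, whose promoter drives the reporter, read 11.52 to 12.23 in ischemic and 11.30 to 11.94 in normal arrays, a difference of 0.36 ± 0.25 (SE, n = 5 and 3; limma adjusted p = 0.897) that is close in size to the cathepsin median.

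**Figure D4:**
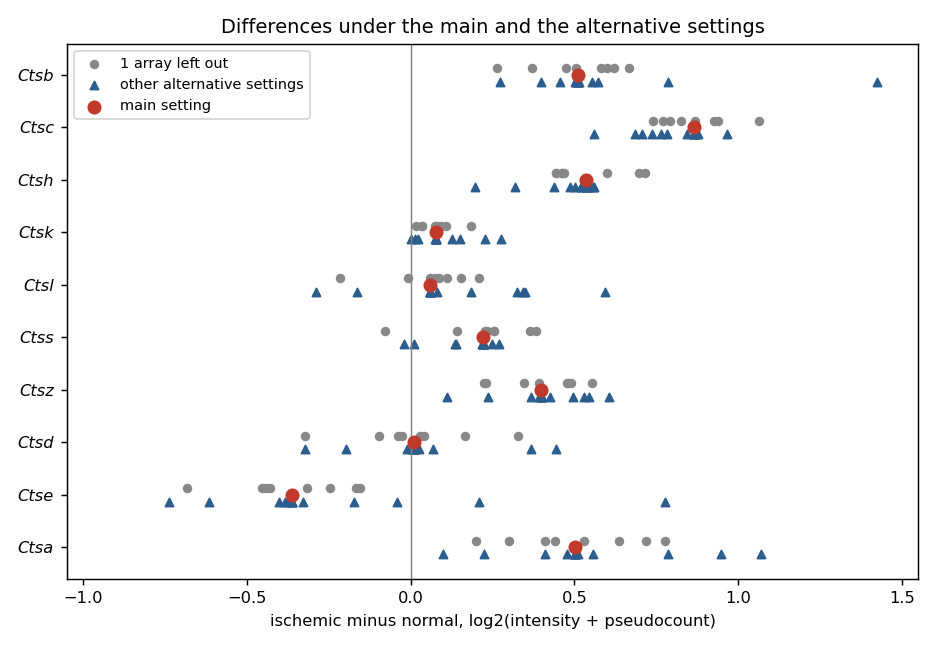
Ischemic minus normal difference of each cathepsin gene in the main setting (red), with 1 array left out (grey) and under the other alternatives (blue triangles), on the log2 scale. Ctsc stays between 0.56 and 1.06, while Ctsd, Ctse, Ctsl and Ctss cross 0.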

How the data were processed

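Per the labels' protocols, kidneys were digested with collagenase, the GFP-positive cells were sorted, and their RNA was amplified and biotin-labelled with NuGEN kits. The authors deposited 1 table of linear probe set intensities for 8 arrays, whose background correction, summary and scaling were not given in the sources used here. Groups came from the sample titles. Intensities were taken as log2(value + 16) and quantile normalized, since the array quartiles differed by 0.28 to 0.39. Of 45101 probe sets, 34945 had 1 symbol, 932 had several and 9160 were not listed; 64 controls were left out. A gene was its probe set with the highest mean. limma 3.58.1 (R 4.3.3) compared the groups, and p-values were adjusted by Benjamini-Hochberg over every gene tested. The same fit was also run on data simulated from the gene means and variances of these arrays, with results not given here. The number of arrays limits the precision. Members and lists were chosen with earlier results of these data known. Of each other list the 2 genes of lowest p were named, where the rule allowed up to 4, and Ctsg, Lum and Calcr were named after their values were seen. For the 9 cathepsins at or above the median level the 2 genes most like each were named.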

Additional observations from a re-analysis of the deposited data

Results flagged for a closer look

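In Ctss the highest ischemic array, ischemic 3 at 11.96, lay apart from the other 4, with a gap to the nearest that was 0.744 of the range of the ischemic group. Without ischemic 3 the difference between the groups was 0.14. The same check was made for 25 genes, and chance gives such a gap in about 1 of 20.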

How the results depend on the processing

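No cathepsin gene passed the adjusted threshold in the main setting or in any alternative fit, and 1 passed at an unadjusted p of 0.05, a count that was 0 to 2 over the alternatives. In fits of all 18193 genes, 809 (without normal 1) to 1714 (without normal 3) passed at that p, against 1295 in the main setting. Ctsc did not pass at that p under ribosomal protein centring (0.068), with a pseudocount of 1 (0.051), with the most variable probe set (0.19), where Ctsb did, or in the arrays with low Xist (0.054). Ctsc was apart between the groups in the main setting, and with 1 array left out the count of genes apart ran from 1 to 2, with Ctsk added without normal 1 and Ctse, lower, without normal 3. Of all genes 8.49% were apart without normal 1 and 14.1% without normal 3, against 5.3% in the main setting. The count of cathepsins apart was 0 with the mean of all probe sets or the most variable one, where 5.36% and 5.05% of all genes were. It was 3 in the arrays with low Xist, where 20.8% of all genes were apart. Signs turned only in genes whose main difference was small or whose probe sets disagree, and the cause was not tested. With arrays centred on their median Ctsd was at −0.20 and Ctsl at −0.16, and under ribosomal protein centring at −0.32 and −0.29. Ctse was at 0.21 with the mean of its probe sets and 0.78 with the most variable one, and Ctss at −0.021 in the arrays with low Xist. With 1 array left out Ctsd ran from −0.32 to 0.33, Ctsl from −0.22 to 0.21 and Ctss from −0.079 to 0.38. Deviations of same-numbered arrays correlated at 0.16, −0.088 and 0.10, so the numbers were not taken to pair them. With the replicate number as a block Ctsd was at −0.0099, Ctse at −0.041, the family median at 0.34 and 0 members passed, so no call changed. The brightness filter dropped Ctsk. Rragd passed under ribosomal protein centring alone. Over all genes limma called 112 without normal 3, 186 with ribosomal centring and 31 with an intensity trend, against 0 in the main setting.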
